A study of Mus musculus with 6 samples.

Results

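The genes of heterotrimeric G proteins, of their RGS regulators and of the adenylyl cyclases were examined in hepatic stellate cells. These liver pericytes store vitamin A and turn into contractile, collagen-producing myofibroblasts after injury. Members were chosen by symbol alone, as every gene whose symbol on the array starts with Gna, Gnb or Gng, with Rgs and a digit (except Rgs5), or with Adcy and a digit. The rule took 60 genes of the 16446 with a symbol, and each was read by 1 probe among the 23473 on the array. They comprised 16 alpha subunit genes, 6 beta, 10 gamma, 19 RGS and 9 adenylyl cyclase genes. The prefixes also took in Gnb1l and Rgs9bp, which encode a WD-repeat protein and a membrane anchor of Rgs9 and are neither subunits nor RGS proteins.

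The cells came from mice with liver cirrhosis induced by CCl4 (carbon tetrachloride, a hepatotoxin), and all 6 samples share that treatment. Of these, 3 were wild type and 3 were labelled SEPT4-KO, mice lacking Sept4, the gene of a septin (septins bind GTP and assemble into filaments). The labels do not give age, sex or strain, or whether each sample is 1 mouse, a pool or a repeat array, so p-values here reflect only how much these samples vary, and that variation may be technical. No probe is named Sept4, so the genotype labels could not be checked by the deleted gene.

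Receptors with 7 membrane-spanning segments act on a G protein made of an alpha, a beta and a gamma subunit. An active receptor makes the alpha subunit exchange GDP for GTP, and the alpha subunit and the beta-gamma pair then act on separate effectors. Alpha subunits of the Gs class stimulate adenylyl cyclase to make cAMP, those of the Gi/o class inhibit it, those of the Gq class activate phospholipase C beta and raise calcium, and those of the G12/13 class activate RhoA through guanine nucleotide exchange factors. RGS proteins end the signal by speeding up GTP hydrolysis on alpha subunits. In stellate cells such receptors, among them those for endothelin, angiotensin, thrombin and lysophospholipids, are known for driving contraction and proliferation, and cAMP for opposing both.

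Values are normalised log2 signals, so a difference of 1 is a 2-fold difference, and all differences are knockout minus wild type. The array medians were all 5.02. Each array had 940 to 1255 probes at its lowest value, where a level is only a bound. Pearson correlations across probes were 0.967 to 0.971 between genotypes and 0.981 to 0.986 within them. Among stellate cell markers, Acta2, Vim, Dcn and Col3a1 had mean signals of 12.1 to 15.8, Des and Lrat of 6.83 and 5.05 in wild-type cells and 6.42 and 7.46 in knockout cells. At an adjusted p under 0.05 in limma, 9 of 13 such markers rose and 3 fell, beside 26.7% and 16.0% of all probes. Their summed signals (log2) were 16.4 to 16.6 in wild-type and 16.9 in knockout arrays. The falls were those of Col1a2 (-1.20), Acta2 (-0.56) and Des (-0.41), whereas Col3a1 rose by 2.09 and Col1a1 by 0.45. Of 11 macrophage and Kupffer cell markers 5 fell and 1 rose, beside 16.0% and 26.7% of all probes. Their summed signal (log2) was 11.6 to 11.7 in wild-type and 11.4 to 11.5 in knockout arrays. C1qa, C1qb, C1qc, Cd14 and Emr1 fell and Clec4f rose, whereas Marco, Vsig4, Cd68, Csf1r and Itgam were not called. Of 15 leukocyte markers 3 fell and 3 rose, beside the same shares of all probes, with sums of 9.59 to 9.61 and 9.66 to 9.74. Cd52, the brightest of them, rose from a mean of 7.60 to 8.12 and weighs most in the higher sums. S100a8 and the dim Cd3g rose too, whereas Ly6g, Cd4 and Cd8a fell, and Ptprc differed by 0.10 and was not called. Endothelial sums were 7.85 to 8.03 and 7.98 to 8.13, and hepatocyte sums 10.5 in both genotypes. Cholangiocyte sums were 10.1 to 10.2 and 8.97 to 9.04, of which Spp1, also a gene of activated stellate cells, made most, and platelet sums were 3.43 to 4.11 and 4.14 to 4.76. No measured marker of the macrophage list lay at an array's lowest value, which does not by itself show RNA of those cells. The part of other cell types in the differences below was not tested. In such bulk samples fewer cells of a type and less RNA per cell cannot be told apart.

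Knockout cells were set against wild-type cells. Of the 60 genes, 17 rose and 10 fell at an adjusted p under 0.05 in limma, whereas 42.7% of all probes passed, 26.7% as higher and 16.0% as lower. The members' shares were 45.0%, 28.3% and 16.7%, near those of all probes. The median difference of the members was 0.20, beside 0.12 for all probes. After quantile normalisation of the deposited values these medians were 0.12 and 0.02, so a small difference can be part of a shift of all probes. In that scaling 16 members rose and 12 fell, beside 42.5% of all probes that passed, 22.3% as higher and 20.2% as lower. The largest fall was that of Rgs16 and the largest rise among genes that passed was that of Gna14. Only 3 of the 27 genes that passed differed at least 2-fold, Rgs16, Gna14 and Adcy7. Signal strength bore on which genes could pass. With a mean signal of at least 5, 24 of 32 members passed, beside 64.3% of all such probes, and below 5, 3 of 28 did, beside 21.2%.

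**Figure D1:**
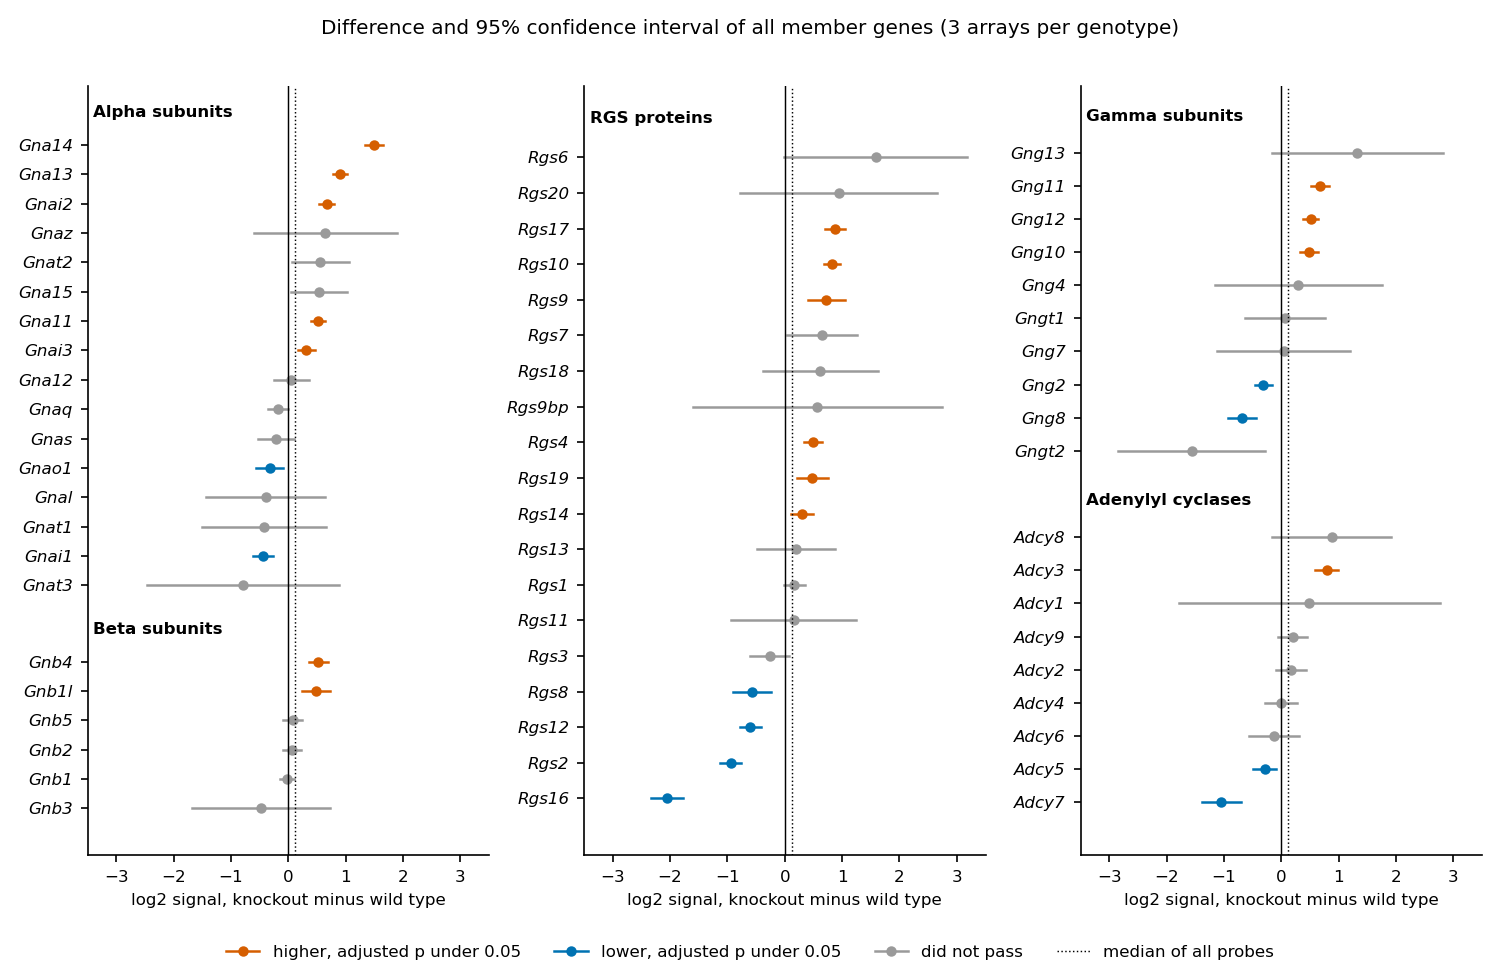
Differences in log2 signal (knockout minus wild type, horizontal axis) of the 60 genes by family, with 95% confidence intervals from limma, 3 arrays per genotype. The 17 genes that rose and the 10 that fell have short intervals, whereas the 33 that did not pass include the widest ones, and the dotted line marks the median of all probes at 0.12.

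As deposited, alpha subunit genes of the Gq and G12/13 classes were higher in knockout cells or did not pass, whereas those of the Gi/o class moved both ways. Of 16 alpha subunit genes 5 rose and 2 fell, beside 26.7% and 16.0% of all probes. Their median difference was 0.18, or 0.09 after quantile normalisation. In the Gq class 2 of 4 rose, in the G12/13 class 1 of 2, and in the Gi/o class 2 of 8 rose and 2 fell. Neither gene of the Gs class passed. Each class holds few genes, so these counts describe single genes and set no class apart from all probes.

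Gna14, a Gq-class subunit with a narrower tissue range than Gnaq or Gna11, had signals of 6.71, 6.71 and 6.56 on the wild-type arrays and 8.19, 8.15 and 8.12 on the knockout arrays. Every knockout array lay above every wild-type array. The difference was 1.49 ± 0.06 (SE), a 2.82-fold rise with an adjusted p of 0.000343. Gna11, the widely expressed Gq-class subunit, read 9.47, 9.46 and 9.45 in wild-type and 9.97, 9.93 and 10.02 in knockout cells. It rose by 0.51 ± 0.05 (SE), and by 0.35 after quantile normalisation. Its close relative Gnaq read 6.03, 6.18 and 5.99 against 5.93, 5.84 and 5.89, a difference of -0.18 with an adjusted p of 0.10. The groups did not overlap for Gnaq, and after quantile normalisation its difference was -0.22 with an adjusted p of 0.0434. Gna15, the Gq-class subunit of blood cells, differed by 0.54 with an adjusted p of 0.0775.

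Gna13, which couples receptors to RhoA, read 8.77, 8.83 and 8.81 in wild-type and 9.75, 9.68 and 9.68 in knockout cells. The knockout arrays were all higher, the difference was 0.90 ± 0.05 (SE), and the rise was 1.87-fold with an adjusted p of 0.000503. Gna12, the other gene of its class, had a difference of 0.05, with a 95% confidence interval of -0.25 to 0.36.

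Among the Gi/o genes, Gnai2 read 13.18, 13.10 and 13.05 in wild-type and 13.79, 13.75 and 13.79 in knockout cells, a rise of 0.67 ± 0.05 (SE) with an adjusted p of 0.000923. The rise was smaller in other scalings, 0.41 after quantile normalisation and 0.39 after cyclic loess. Gnai3 read 12.27, 12.29 and 12.25 against 12.50, 12.60 and 12.66. It rose by 0.32 as deposited, but that call ended after quantile normalisation, where the difference was 0.12 and the adjusted p 0.114. Cyclic loess gave 0.07 and 0.287. Gnai1 moved the other way, from 6.43, 6.38 and 6.27 to 5.85, 5.96 and 5.97. It fell by 0.43 ± 0.07 (SE) with an adjusted p of 0.00624, so the 3 inhibitory subunit genes, whose proteins are closely alike, did not share a direction. Gnao1, known from neurons, read 4.74, 4.90 and 4.71 against 4.57, 4.33 and 4.48. It fell by 0.33 with an adjusted p of 0.0373, a call that ended in 8 of 17 alternatives. Among these were leaving out any single array but knockout replicate 1, with adjusted p-values of 0.0655 to 0.102.

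The Gs-class genes Gnas and Gnal did not pass. Gnas, the stimulatory subunit of most cells, read 4.24, 4.34 and 4.36 in wild-type and 4.31, 3.88 and 4.12 in knockout cells, a difference of -0.21 with a 95% confidence interval of -0.52 to 0.11. The Gnas locus makes several transcripts, and which of them the probe reads is not given in the sources used here. Gnal, the stimulatory subunit of olfactory neurons and the striatum, was at the floor of 2 knockout arrays, replicates 1 and 3. Without knockout replicate 2 its difference moved from -0.40 to -0.83 with an adjusted p of 0.0169. The knockout arrays left were then those at the floor, which sets their spread, so that fit gives no usable size or p-value. The transducin and gustducin genes of photoreceptor and taste cells were dim, with differences of 0.56 for Gnat2, -0.42 for Gnat1 and -0.79 for Gnat3, and did not pass, nor did Gnaz, a Gi/o-class gene known from neurons and platelets, with 0.64. Without wild-type replicate 2 the adjusted p of Gnat2 was 0.0359 at a difference of 0.72, and without knockout replicate 2 that of Gnat3 was 0.00985 at -1.51.

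The promoters of the 2 alpha subunit genes with the largest rises are shown because both genes rose and their start regions differ in base composition. Each is 300 bases from RefSeq on GRCm38.p6, 250 before and 50 after the annotated start, and runs 5′ to 3′ on the strand of the gene. Capitals would mark TGACG on either strand, the half-site of the cAMP response element bound by CREB, and neither holds it. Gna14 lies at chr19:16435417-16435716 (+) and Gna13 at chr11:109362544-109362843 (+).
Gna14: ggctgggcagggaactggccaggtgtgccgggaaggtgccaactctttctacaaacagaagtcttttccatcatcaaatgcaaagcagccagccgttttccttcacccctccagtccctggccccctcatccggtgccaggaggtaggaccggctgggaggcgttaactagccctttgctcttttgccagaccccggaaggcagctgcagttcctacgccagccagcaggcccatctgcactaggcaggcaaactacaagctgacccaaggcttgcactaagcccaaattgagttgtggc
Gna13: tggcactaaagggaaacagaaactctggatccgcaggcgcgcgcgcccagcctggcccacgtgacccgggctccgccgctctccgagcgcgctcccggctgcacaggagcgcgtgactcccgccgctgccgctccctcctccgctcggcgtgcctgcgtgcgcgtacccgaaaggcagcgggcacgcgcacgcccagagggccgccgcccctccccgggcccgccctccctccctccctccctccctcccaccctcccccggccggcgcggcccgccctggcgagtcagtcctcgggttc
The Gna14 window was 58.0% G and C and held no GC box, spelled GGGCGG and searched on both strands. The Gna13 window was 76.7% G and C and held 3. That motif was in 35.7% of all 32851 promoter windows of this length in the table.

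Of the beta subunit genes, which form stable pairs with gamma subunits, Gnb4 rose and no true subunit gene fell. Gnb4 read 9.38, 9.30 and 9.20 in wild-type and 9.84, 9.79 and 9.82 in knockout cells, a rise of 0.52 ± 0.06 (SE) with an adjusted p of 0.00272. Gnb1l, not a subunit, rose by 0.48 from 6.64, 6.53 and 6.53 to 7.22, 6.99 and 6.94. Gnb1, the bright and widely expressed beta subunit, read 12.96, 12.93 and 12.86 against 12.89, 12.88 and 12.90, with overlapping groups and a difference of -0.02. After quantile normalisation its difference was -0.23 with an adjusted p of 0.00913, and cyclic loess gave -0.28 with 0.00475. Gnb2 and Gnb5, the latter a partner of RGS proteins of the R7 subfamily, differed by 0.06 and 0.08 and Gnb3 by -0.47, and none of these passed. The family's median was 0.07, and -0.08 after quantile normalisation.

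Among 10 gamma subunit genes, whose lipid tails hold the complex at the membrane, 3 widely expressed members rose and 2 fell. The shares of all probes were 26.7% higher and 16.0% lower. Gng11 read 9.67, 9.59 and 9.51 in wild-type and 10.23, 10.28 and 10.27 in knockout cells. It rose by 0.67 ± 0.06 (SE), or 1.59-fold, with an adjusted p of 0.00114. Gng12 rose by 0.51, from 11.46, 11.42 and 11.36 to 11.93, 11.93 and 11.90, and Gng10 by 0.49, from 10.92, 10.86 and 10.76 to 11.30, 11.34 and 11.37. The groups did not overlap for any of the 3, and after quantile normalisation they rose by 0.50, 0.31 and 0.32.

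Gng8, known from olfactory neurons, fell the most among the gamma subunit genes that passed, from 6.23, 6.0 and 5.98 to 5.41, 5.45 and 5.29, a difference of -0.68 ± 0.09 (SE) with an adjusted p of 0.00370. Gng2 read 8.54, 8.48 and 8.44 against 8.11, 8.22 and 8.20 and fell by 0.31. Gngt2, first known from cone photoreceptors and also present in blood cells, read 5.14, 4.95 and 5.09 in wild-type but 2.44, 3.70 and 4.36 in knockout cells. All knockout values lay below the wild-type ones, but they ranged from 2.44 to 4.36. The difference of -1.56 had an adjusted p of 0.0578, with a 95% confidence interval of -2.84 to -0.28, and passed in 8 of 17 alternatives. Without knockout replicate 1 it was -1.03 with an adjusted p of 0.0306, and without knockout replicate 3 -1.99 with 0.0257. The summed macrophage markers were lower in the knockout arrays too, although not every such marker fell, and the part of those cells in that difference was not tested. Gng13 was at the floor of 2 wild-type arrays and read 0.93, 0.83 and 2.85 in the knockout, with an adjusted p of 0.131. Without knockout replicate 3 the adjusted p was 0.00789 and the difference 0.67 in place of 1.33. The floor limits the wild-type values and their spread, so neither difference is a usable size, nor is that p-value a guide. Gng4, Gng7 and Gngt1 were dim and did not pass.

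The RGS genes held the largest fall of the whole set. Of 19 RGS genes, counting the anchor gene Rgs9bp, 6 rose and 4 fell, beside 26.7% and 16.0% of all probes. The median difference of the 19 was 0.48, and it was 0.39 after quantile normalisation and 0.305 with a linear offset, which damps dim signals. The R4 subfamily, small proteins of little more than the RGS domain, had 1 rise and 3 falls among 8. The RZ subfamily had 2 rises among 3, the R7 subfamily 1 among 4, and the R12 subfamily 2 rises and 1 fall among 3. With so few genes in each, these counts set no subfamily apart from all probes.

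Rgs16, an R4 protein that acts on Gi- and Gq-class subunits, read 8.49, 8.61 and 8.52 in wild-type and 6.68, 6.30 and 6.46 in knockout cells. The lowest wild-type array stood well above the highest knockout array. The difference was -2.06 ± 0.11 (SE), a 4.16-fold fall with an adjusted p of 0.000505, and it ran from -2.17 to -1.97 over 18 alternatives. Some of these, such as the probe filters and the variance prior, cannot change a difference. Rgs2, an R4 protein that prefers Gq-class subunits and is known for limiting contraction of vascular smooth muscle, read 8.80, 8.91 and 8.87 against 7.85, 7.85 and 8.03. It fell by 0.95 ± 0.07 (SE), or 1.93-fold, with an adjusted p of 0.000802. Rgs8, best known from neurons, read 5.48, 5.6 and 5.68 against 4.88, 4.88 and 5.27 and fell by 0.57. That call ended in 4 of 18 alternatives, which left out wild-type replicate 2 or 3 or knockout replicate 1 or 2, with adjusted p-values of 0.0604 to 0.0665.

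Rgs4, an R4 protein active on Gi- and Gq-class subunits, went the other way from 7.08, 7.05 and 7.09 to 7.65, 7.47 and 7.57. It rose by 0.49 ± 0.06 (SE) with an adjusted p of 0.00306. Rgs1, best known from lymphocytes, read 9.68, 9.64 and 9.48 against 9.78, 9.82 and 9.70. Its groups did not overlap, but the difference was 0.17 with an adjusted p of 0.126, and 0.01 after quantile normalisation. Rgs3 differed by -0.26, the platelet gene Rgs18 by 0.62 and the B-cell gene Rgs13 by 0.20, and none passed. Without knockout replicate 1 Rgs3 differed by -0.40 with an adjusted p of 0.0132. The leukocyte marker sums given above were higher in the knockout arrays, although the single markers moved both ways and Cd52 weighs most in those sums. The dim platelet sums were higher too. The part of such cells in the values of Rgs1, Rgs13, Rgs18 and Gna15 was not tested.

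The promoters of Rgs16 and Rgs2 are shown because these were the RGS genes with the largest falls, and because they differ in the half-site TGACG, which capitals mark on either strand. Rgs16 lies at chr1:153740103-153740402 (+) and Rgs2 at chr1:144004100-144004399 (-), both from RefSeq on GRCm38.p6 and written 5′ to 3′ on the strand of the gene.
Rgs16: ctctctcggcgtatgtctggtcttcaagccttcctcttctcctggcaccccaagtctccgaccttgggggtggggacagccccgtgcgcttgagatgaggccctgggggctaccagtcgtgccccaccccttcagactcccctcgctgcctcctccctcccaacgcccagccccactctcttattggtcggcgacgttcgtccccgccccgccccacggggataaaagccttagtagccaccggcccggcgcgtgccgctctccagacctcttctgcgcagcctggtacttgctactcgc
Rgs2: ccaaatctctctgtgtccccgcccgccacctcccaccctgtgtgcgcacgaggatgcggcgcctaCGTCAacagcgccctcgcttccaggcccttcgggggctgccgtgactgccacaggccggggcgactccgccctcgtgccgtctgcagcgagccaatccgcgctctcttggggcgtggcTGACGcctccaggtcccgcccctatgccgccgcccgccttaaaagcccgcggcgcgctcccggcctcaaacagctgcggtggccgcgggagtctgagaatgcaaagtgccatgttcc
The Rgs2 window held the half-site 2 times, beginning 185 and 67 bases before the annotated start, and the Rgs16 window held none. Both held GGGCGG, 2 times in Rgs16 and 4 times in Rgs2, and both held CCAAT once on either strand, 68 and 94 bases before the start. Of the 44 members with a window in the table, 13 (29.5%) held TGACG, beside 23.0% of all 27025 genes in it, and 29 (65.9%) held GGGCGG, beside 38.2%. The palindrome TGACGTCA, which contains TGACG and was searched on both strands, was in none of the 44 and in 2.03% of all genes. These are matches of letters and not measured sites.

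The RZ genes rose or did not pass. Rgs17, which acts on Gi/o-class subunits and on Gnaz, read 5.89, 5.92 and 5.76 in wild-type and 6.79, 6.77 and 6.65 in knockout cells. It rose by 0.88 ± 0.07 (SE), or 1.84-fold, with an adjusted p of 0.000901. Rgs19, which acts on Gi/o-class subunits, rose by 0.48, from 6.33, 6.2 and 6.0 to 6.73, 6.68 and 6.56, and its call ended in 3 of 18 alternatives: at an adjusted p of 0.0524 without wild-type replicate 2, and at 0.0555 and 0.0565 without knockout replicates 1 and 2. Rgs20 was at the floor of 2 arrays of each genotype and gave no usable size.

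In the R12 subfamily Rgs10, a small RGS protein found in macrophages and microglia among other cells, read 7.41, 7.37 and 7.5 against 8.29, 8.22 and 8.25. It rose by 0.82 ± 0.06 (SE), or 1.77-fold, with an adjusted p of 0.000686, whereas the macrophage marker sums were lower in the knockout arrays. The part of those cells in its signal was not tested. Rgs12, a large scaffold that also binds Ras and inactive Gi-class subunits, fell by 0.60 ± 0.07 (SE), from 8.03, 8.09 and 8.12 to 7.39, 7.46 and 7.60. Rgs14, built like Rgs12, read 3.92, 4.10 and 4.02 against 4.25, 4.27 and 4.41. It rose by 0.30 with an adjusted p of 0.0305, and the call ended in 8 of 17 alternatives. Among these were leaving out any single array but wild-type replicate 2, with adjusted p-values of 0.052 to 0.082.

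In the R7 subfamily Rgs9, known from photoreceptors and the striatum, rose by 0.72 ± 0.13 (SE), from 4.84, 5.25 and 5.01 to 5.80, 5.85 and 5.63. Rgs6 read 3.37, 3.33 and 1.25 against 4.16, 4.23 and 4.30. Its difference of 1.58, with an adjusted p of 0.0999, was made larger and more variable by wild-type replicate 3. Without that array it was 0.88 with an adjusted p of 0.00459. Rgs7 differed by 0.65, with an adjusted p of 0.0813, or 0.044 without wild-type replicate 1, and Rgs11 by 0.16. The anchor gene Rgs9bp, at the floor of 1 wild-type array, differed by 0.56 with an adjusted p of 0.632, or 0.0247 with replicate number as a block.

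Of the 9 adenylyl cyclase genes 1 rose and 2 fell, beside 26.7% and 16.0% of all probes. Adcy3, the cyclase of olfactory and other primary cilia, read 7.27, 7.14 and 7.12 in wild-type and 7.99, 7.85 and 8.06 in knockout cells. It rose by 0.79 ± 0.08 (SE), or 1.73-fold, with an adjusted p of 0.00160. Adcy7, an isoform prominent in blood cells and stimulated by beta-gamma subunits, read 5.36, 5.37 and 5.02 against 4.05, 4.24 and 4.33. It fell by 1.04 ± 0.13 (SE), or 2.06-fold, with an adjusted p of 0.00295. The macrophage marker sums were lower in the same arrays and the leukocyte sums higher, with single markers of both lists moving both ways. The part of such cells in this fall was not tested. Adcy5, which Gi-class subunits inhibit, read 5.61, 5.42 and 5.59 against 5.30, 5.30 and 5.16. It fell by 0.28, and the call ended in 7 of 18 alternatives. Among these were leaving out any single array but wild-type replicate 2, with adjusted p-values of 0.0679 to 0.105.

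The other cyclase genes did not pass, and their intervals show how much could have been missed. For Adcy6, the close relative of Adcy5, the difference was -0.12 with a 95% confidence interval of -0.55 to 0.31, and for Adcy4 it was 0.00 with -0.28 to 0.28. Adcy9 and Adcy2 differed by 0.20 and 0.17. Adcy8 differed by 0.88 and Adcy1 by 0.49, both dim and with wide intervals.

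**Figure D2:**
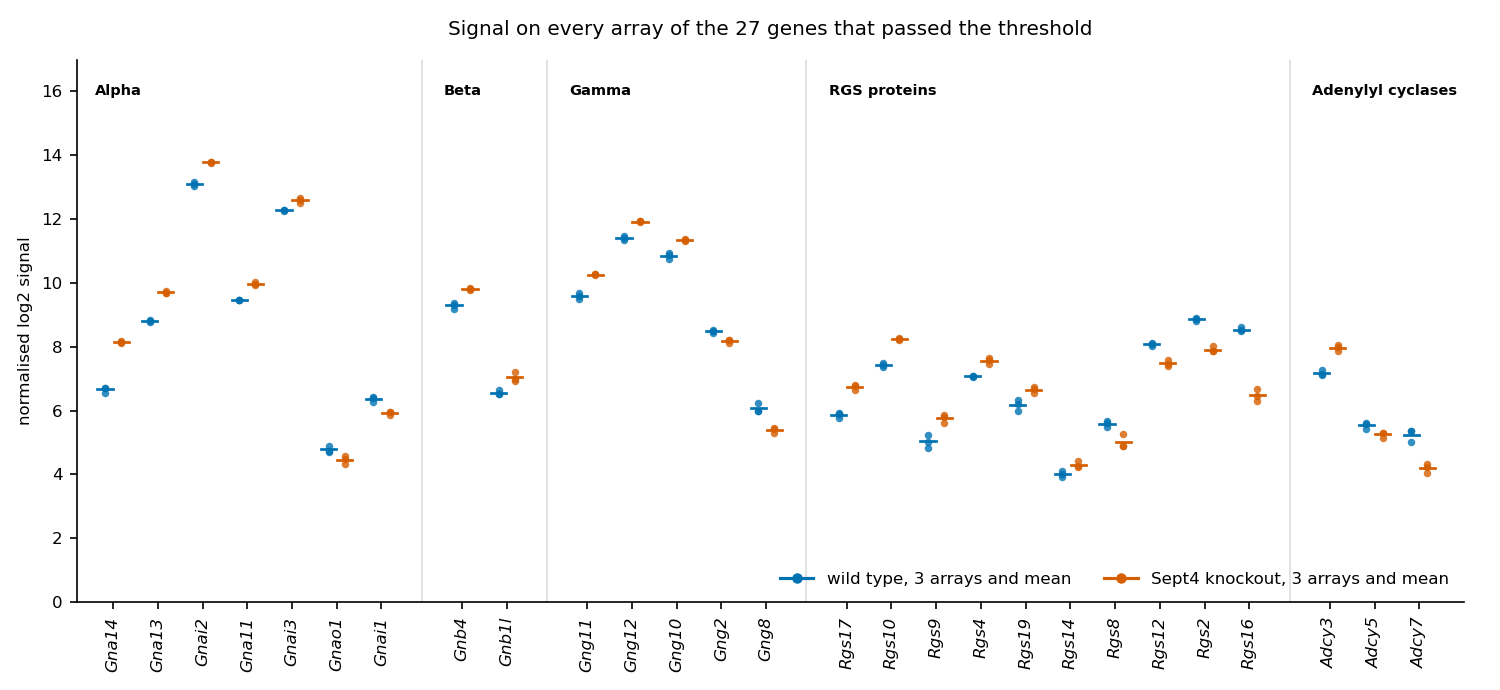
Normalised log2 signal (vertical axis) of the 27 genes that passed, on each of 3 wild-type and 3 knockout arrays, with a bar at each group mean. The points of the genotypes do not overlap for any of the 27 genes, and the widest gap is that of Rgs16, from a mean of 8.54 to 6.48.

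The groups did not overlap for 36 of the 60 genes (60%), 24 with the knockout above and 12 below, beside 56.2% of all probes, 34.5% above and 21.7% below. All 27 genes that passed were among them, and an exact two-sided permutation test over the arrays gave p = 0.1 for each, the smallest that 3 arrays against 3 allow. Of the 33 genes that did not pass, 25 had a mean signal below 5. In 18 alternatives, 20 of the 27 calls held wherever the gene could be tested. The other 7 were those of Gnai3, Gnao1, Gng2, Rgs8, Rgs14, Rgs19 and Adcy5, of which Gng2 lost its call only with the replicate block, at an adjusted p of 0.0575.

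**Figure D3:**
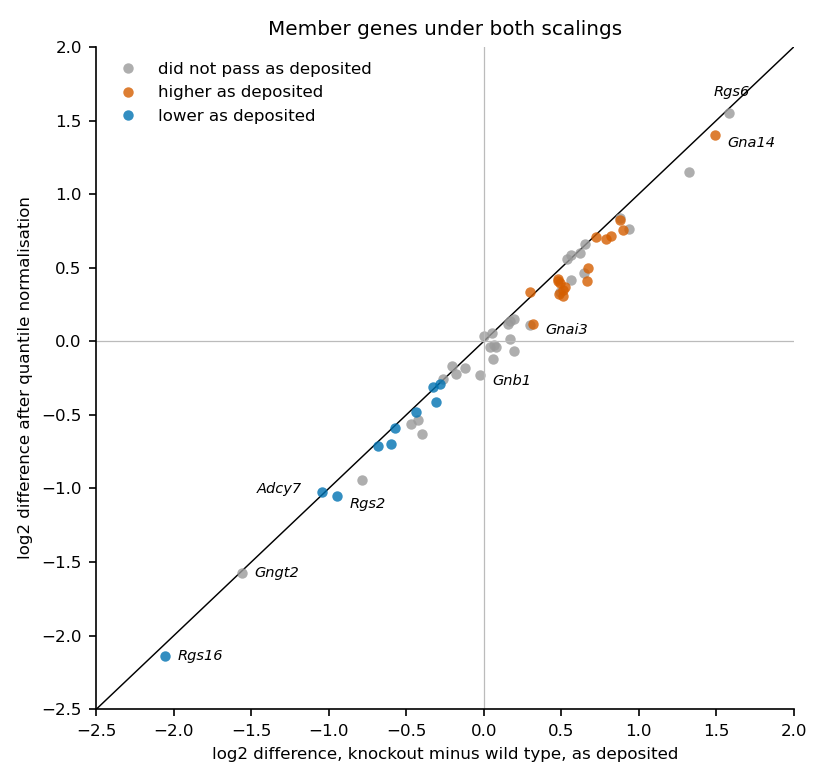
Log2 difference of each of the 60 genes as deposited (horizontal axis) and after quantile normalisation (vertical axis), with the line of equal values. Of the 60 points 50 lie below the line, the large differences of Rgs16 (-2.06 and -2.14) and Gna14 (1.49 and 1.40) hardly moved, and Gnai3, Gnaq and Gnb1 changed their side of the threshold.

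Several members lie next to each other on the mouse chromosomes in the RefSeq gene table (GRCm38.p6), which was used here for the order of genes. There were 11 pairs of members with at most 2 protein-coding genes between them, and both genes passed in 2 pairs. Singly, 45.0% of the members and 42.7% of all probes passed, so some such pairs arise whatever their position. Whether position bears on these differences was not tested. Rgs8 and Rgs16, adjacent on chromosome 1, both fell, by 0.57 and 2.06. Rgs9 and Gna13, adjacent on chromosome 11, both rose, by 0.72 and 0.90. In the other pairs at most 1 gene passed. Gna14 rose beside Gnaq, with differences of 1.49 and -0.18 on chromosome 19, and Gng11 rose beside the dim Gngt1, with 0.67 and 0.06 on chromosome 6. Rgs2 fell, whereas Rgs13 and Rgs1, which follow it on chromosome 1, differed by 0.20 and 0.17.

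Upstream of the G proteins, genes of receptors known from stellate or smooth-muscle-like cells were mostly lower where they passed. The list was chosen with earlier results of these data known, so its counts describe these genes and are no test. Of 39 measured receptor genes 18 fell and 1 rose, beside 16.0% and 26.7% of all probes, and their median difference was -0.45, or -0.48 after quantile normalisation. Over the alternatives 14 to 19 fell and 1 to 5 rose. The higher counts of rises came with the trended prior (5), array weights (4) and without wild-type replicate 1 (3). Edg1, the sphingosine 1-phosphate receptor now called S1pr1, which couples to Gi, read 9.09, 9.20 and 9.12 in wild-type and 7.20, 7.21 and 7.23 in knockout cells. It fell by 1.92 ± 0.05 (SE), or 3.79-fold, with an adjusted p of 0.000214. The pyrimidine nucleotide receptor gene P2ry6 fell by 1.48 and the dim prostacyclin receptor gene Ptgir by 1.76, the latter with an adjusted p of 0.0448, which ran from 0.0743 to 0.127 without wild-type replicate 2 or 3 or knockout replicate 2 or 3. The exception was P2ry14, the UDP-glucose receptor, which rose 2.83-fold with an SE of 0.05 on the log2 scale, from 11.05, 11.12 and 11.11 to 12.59, 12.59 and 12.61. Further receptors were chosen once their values were known: the thrombin receptor gene F2r fell by 0.51, the angiotensin receptor gene Agtr1a by 0.57, the endothelin receptor gene Ednrb by 0.45 and the vasopressin receptor gene Avpr1a by 1.22.

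Among 24 genes of receptor kinases, arrestins and other regulators 9 rose and 4 fell, beside 26.7% and 16.0% of all probes, and the median difference was 0.13 beside 0.12. Ric8 (now Ric8a), an exchange factor and chaperone of some alpha subunits, read 6.05, 6.32 and 6.1 in wild-type and 8.31, 8.37 and 8.42 in knockout cells. It rose by 2.21 ± 0.09 (SE), or 4.61-fold, with an adjusted p of 0.000339, the largest difference of this list. Its relative Ric8b did not pass, with a difference of 0.03 and an adjusted p of 0.913. The retinal genes Grk1 and Arr3 differed by 1.65 and -1.56 and the Gi-binding protein gene Gpsm1 by 1.61. All 3 wild-type signals of Grk1 were at the floor of their array, so its difference is no size. Gpsm1 was near the floor, and its adjusted p of 0.018 became 0.0619 without wild-type replicate 3 and 0.0542 without knockout replicate 2.

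Of 19 genes of Gq- and G12/13-class effectors 8 rose and 4 fell, beside the same 26.7% and 16.0% of all probes, with a median difference of 0.24. The phospholipase C gene Plcb4 fell by 0.63 ± 0.06 (SE), from 6.95, 7.1 and 7.01 to 6.4, 6.34 and 6.42. The RhoA exchange factor gene Arhgef12, a partner of G12/13-class subunits, rose by 0.66 with an adjusted p of 0.0244, the exchange factor gene Trio, dim in wild-type cells at 0.88, by 1.92, and the kinase gene Prkce fell by 0.81 with an adjusted p of 0.0495. The call of Arhgef12 ended without any 1 knockout array (adjusted p-values of 0.0518 to 0.0742), that of Trio without wild-type replicate 2 or 3 or knockout replicate 2 or 3 (0.0502 to 0.0738) and that of Prkce without any 1 array (0.0601 to 0.129). Also picked with values in view, the exchange factor genes Arhgef1 and Arhgef11 rose by 0.51 and 0.55, and Rhoa itself fell by 0.47. In the same way, Rock1 fell by 0.45, whereas Plcb3 and Prkcd, relatives of Plcb4 and Prkce, rose by 0.40 and 0.55.

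Of 38 genes of cAMP effectors and breakdown 11 rose and 8 fell, near the 26.7% and 16.0% of all probes, with a median difference of 0.16. The cAMP phosphodiesterase gene Pde7b rose by 1.34 ± 0.08 (SE), from 3.83, 3.94 and 3.78 to 5.30, 5.17 and 5.11. The anchoring protein gene Akap12 fell by 1.21 ± 0.05 (SE), from 11.25, 11.20 and 11.17 to 10.02, 9.99 and 9.99. Pkig, an inhibitor of protein kinase A, rose by 0.91, and Prkaca, a catalytic subunit of that kinase, by 0.90. Of 14 genes commonly induced through cAMP and CREB 5 rose and 3 fell, beside those same shares of all probes, with a median difference of 0.15. This list shares Crem, Pde4b and Pde4d with the one before. Bdnf fell by 1.72 ± 0.05 (SE) and Fosb rose by 1.27, while Nr4a3 and Ppargc1a rose by 2.53 and 1.48 from wild-type signals of 0.72 and 2.06, near the lowest values. A second Ppargc1a probe gave a difference of 0.69 at an adjusted p of 0.0693, and the call of the probe used ended without wild-type replicate 1 or knockout replicate 1 or 3 (0.0623 to 0.066).

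**Figure D4:**
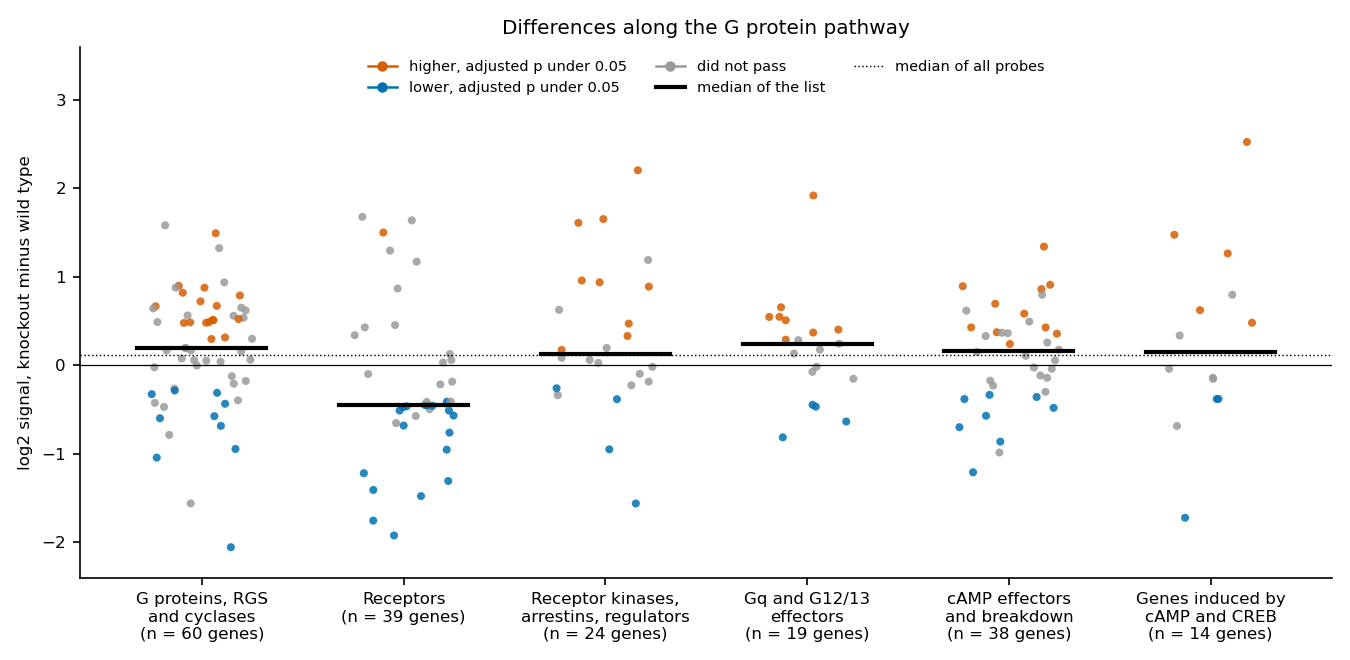
Log2 difference (knockout minus wild type, vertical axis) of each gene in the set and in 5 lists along the pathway, with a bar at each list's median and colours for genes that rose, fell or did not pass. The receptor list has its median at -0.45, and the medians of the other lists lie between 0.13 and 0.24. All lists were chosen with earlier results of these data known.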

How the data were processed

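Messenger RNA was measured on 6 single-colour (Cy5) arrays, 3 per genotype. Per the labels, the authors deposited quantile-normalised values, read here as log2 signals from their range, since the log base is not stated. Quantile normalisation equalises whole distributions, but the highest values ran from 15.7 to 16.8 between arrays. The protocol text on labelling mentions a kit for microRNA and tumour material, which departs from the design. How background was corrected is not given here.

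Probes took symbols from the platform annotation (16631 with 1 symbol, 6842 with none). A linear model per probe (limma 3.58.1, R 4.3.3; lmFit, eBayes) used the values as deposited, two-sided, with Benjamini-Hochberg adjustment over 23473 probes and a threshold of 0.05. The fit was tested on simulated data. Where a list gene had more than 1 probe, that of highest mean counted.

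The members and lists were chosen with earlier results of these data known. In each family, values on every array were given for up to 6 genes that passed, by size; in each pathway list up to 4 genes that passed were named. Alternatives covered scaling, filters, a linear offset, array weights, the variance prior, a block for replicate number, and leaving out each array. Same-numbered arrays did not deviate together (correlations of -0.002 to 0.008). Promoters came from RefSeq, GRCm38.p6. Figures were drawn with matplotlib 3.10.9.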

Additional observations from a re-analysis of the deposited data

How the results depend on the processing

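Over the alternatives, 15 to 20 members rose and 7 to 12 fell, beside 17 and 10 of the 60 as deposited. The probe filters removed dim members, so their counts and medians cover fewer than 60 genes. Leaving out each array in turn gave 15 to 17 rises, 7 to 10 falls, medians of 0.14 to 0.26 and shares of all probes of 22.1% to 23.6% higher and 11.8% to 15.1% lower. The members' median of 0.20 moved to 0.12 after quantile normalisation, 0.10 after cyclic loess, 0.081 with centring on the median difference of all probes and 0.26 with array weights. Without the dimmest 50% of probes the median of the members left was also 0.26, which is a median of other genes than the 0.20. Of the remaining probes 49.0% were higher and 27.6% lower, since dim probes pass less often. After quantile normalisation 22.3% of all probes were higher and 20.2% lower, so the share of higher calls fell from 62.6% to 52.5%. With the replicate number as a block, 16 genes rose and 7 fell, and the calls of Gnai3, Gnao1, Gng2, Rgs14 and Adcy5 ended, although the numbers do not pair the samples. The 16 include Rgs9bp, which passed only there, at an adjusted p of 0.0247. No called member changed sign under any alternative. The probe filters, the variance prior and the replicate block cannot change a difference, only its call, so they say nothing on sign. Of the 33 genes that did not pass, 14 passed under at least 1 alternative and 12 changed sign without passing. The 14 include Gnal, Gng13 and Rgs9bp, each at the floor of at least 1 array. Every member had 1 probe, so averaging probes changed nothing. Without Gnb1l and Rgs9bp 16 rose and 10 fell. Dim signals limit the 28 members with a mean below 5.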
